A study of Homo sapiens with 3 samples.

Results

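The zinc finger genes named ZNF on chromosome 19 are described here in SAS cells, a human oral squamous carcinoma line, after transfection of siRNA against ARID1A. The members are the probe sets of the Affymetrix Human Gene 2.0 ST array whose only gene symbol is ZNF, digits and at most a letter from A to D, and whose annotated chromosome is 19. There are 248 such probe sets, for 241 genes, of 31134 probe sets with 1 symbol and 53617 in all. The values are log2 expression values from 3 arrays. Of these, 2 came from cells labelled ARID1A siRNA and are called array 108 and array 109 after the numbers in their titles, and 1 came from cells labelled mock, titled SAS NC. The siRNAs were delivered with the lipid reagent Lipofectamine RNAiMAX, and the labels leave unsaid if a control siRNA was given to mock cells, which siRNA sequence either siRNA array received, or at what time cells were taken. Nor do they say that arrays 108 and 109 had a culture each, so a spread between them may be technical, and the mock array has no replicate. In bulk RNA, fewer cells that express a gene and less of its RNA per cell cannot be told apart.

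Most of these genes encode proteins with a row of zinc fingers, small folds in which cysteines and histidines hold a zinc ion and which read DNA sequence. Many also carry a KRAB domain, which binds the scaffold protein TRIM28 (KAP1). TRIM28 brings in the histone methyltransferase SETDB1 and heterochromatin proteins, and so silences the bound DNA, often a retroelement. The genes lie in clusters on chromosome 19 that grew by local duplication, so neighbours often resemble each other. ARID1A is a DNA-binding subunit of BAF, a SWI/SNF complex that moves nucleosomes.

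ARID1A itself measured log2 5.72 on array 108, 5.32 on array 109 and 6.79 in mock cells. It was lower on both arrays labelled ARID1A siRNA (limma adjusted p = 0.753). Of 10 squamous epithelial markers, 7 lay above the negative control mean on every array. KRT14 and KRT17 did so on 2 arrays each, and KRT6A on array 108 alone. The authors' negative control mean was log2 4.36 on array 108, 4.65 on array 109 and 4.43 on the mock array. Of these 10, 3 were higher on both siRNA arrays than on the mock array, where 12.9% of all probe sets tested were. Only 1, PERP, was lower on both, where 15.7% were, and on array 109 its log2 difference was just -0.00052. The basal keratin gene KRT5 was at 6.75 on array 108, 5.77 on array 109 and 6.66 in mock cells, and the cadherin gene CDH1 at 9.53, 9.03 and 9.0. The summed linear signal of the 10 squamous markers was log2 12.55, 12.19 and 12.40 on these arrays. Its part in the results below was not tested. Leukocyte, fibroblast and endothelial markers held 1, 1 and 0 probe sets above the negative control mean on all arrays, of 4, 4 and 2 found.

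The printed RefSeq promoters are those of ZNF681, ZNF431 and ZNF254, neighbours whose signal was low on array 108, and of ZNF284, the top-ranked member among those above mock on both siRNA arrays. They are shown to compare these neighbours with a member of another cluster. Each runs from 250 bases before to 50 bases after the annotated start, on GRCh38.p14, and capitals mark the ETS-type motif CCGGAAG or its reverse complement CTTCCGG, a sequence bound by ETS-family transcription factors. ZNF681 is on the minus strand at chr19:23758842-23759141. ZNF431 is on the plus strand at chr19:21141790-21142089. ZNF254 is on the plus strand at chr19:24086937-24087236. ZNF284 is on the plus strand at chr19:44071909-44072208.
ZNF681: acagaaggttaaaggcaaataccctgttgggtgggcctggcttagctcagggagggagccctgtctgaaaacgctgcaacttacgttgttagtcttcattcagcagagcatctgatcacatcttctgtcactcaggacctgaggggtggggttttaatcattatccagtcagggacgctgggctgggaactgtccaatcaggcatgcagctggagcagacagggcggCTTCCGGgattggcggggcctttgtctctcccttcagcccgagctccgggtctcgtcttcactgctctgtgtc
ZNF431: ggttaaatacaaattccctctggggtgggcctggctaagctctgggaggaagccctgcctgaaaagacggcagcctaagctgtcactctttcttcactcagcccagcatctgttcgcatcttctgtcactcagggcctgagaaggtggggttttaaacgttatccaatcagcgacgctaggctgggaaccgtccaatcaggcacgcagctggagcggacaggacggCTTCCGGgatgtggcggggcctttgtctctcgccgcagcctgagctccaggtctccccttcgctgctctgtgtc
ZNF254: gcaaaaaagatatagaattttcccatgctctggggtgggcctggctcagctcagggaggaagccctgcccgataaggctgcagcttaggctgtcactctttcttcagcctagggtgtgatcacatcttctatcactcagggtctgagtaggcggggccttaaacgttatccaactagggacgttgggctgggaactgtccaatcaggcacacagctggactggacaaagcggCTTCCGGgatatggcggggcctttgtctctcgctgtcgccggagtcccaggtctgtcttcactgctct
ZNF284: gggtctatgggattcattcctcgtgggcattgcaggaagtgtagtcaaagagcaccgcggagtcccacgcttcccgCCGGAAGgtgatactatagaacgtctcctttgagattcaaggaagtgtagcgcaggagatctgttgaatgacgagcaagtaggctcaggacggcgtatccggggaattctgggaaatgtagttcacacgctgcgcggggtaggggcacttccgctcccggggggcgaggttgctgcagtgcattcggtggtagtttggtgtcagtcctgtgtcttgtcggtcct
The promoters of ZNF681, ZNF431 and ZNF254 resembled each other closely. In global alignments ZNF681 and ZNF431 were 82.4% identical, ZNF681 and ZNF254 77.7%, and ZNF431 and ZNF254 78.7%. ZNF284, from another cluster, was 52.1% identical to ZNF681. No other member of the cluster of these neighbours was aligned, and a link between their resemblance and the signal on array 108 was not tested. In the first 3 promoters the motif began at base 228, 227 and 233 of the printed sequence, and in ZNF284 it lay nearer the other end, at base 77. Over the 258 promoters that the table held for 210 of the member genes, 39.1% had this motif on either strand, against 10.3% of all 35116 promoters of the same length. The TATA motif TATAAA, or TTTATA on the other strand, was in 2.71% of the member promoters and in 11.5% of all. The median number of CG dinucleotides was 20 and 14 in these sets. These are descriptions of the sequence, with no test, and the motif search was chosen after expression values had been seen. Promoters of ZNF genes on other chromosomes and of other chromosome 19 genes were not counted apart.

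Of the 248 member probe sets, 110 lay above the negative control mean on all 3 arrays, 15 on 1 or 2 arrays and 123 on none. The share above it on all arrays was 44.4%, beside 60.6% of 289 ZNF probe sets on other chromosomes, 57.2% of 1475 other probe sets of chromosome 19 and 44.5% of all probe sets with 1 symbol. Values near or below that mean carry little information on the gene's RNA. A filter on the mean level left 182 members for the fit, of which 110 were above the negative control mean on all arrays. None of the 66 members left out lay above it on any array. No member is marked as cross-hybridising in the authors' deposited table, but these genes share near-identical finger repeats, so signal from a paralog cannot be told apart from a member's own.

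The share of members above the negative control mean differed between the clusters. Ordered by the RefSeq annotation and split where neighbouring members were over 1 Mb apart, the members formed 16 runs, and 7 runs of at least 10 members held 227 of the 248. In the run from ZNF628 to ZNF446, 41 of 61 members lay above the negative control mean on all arrays, and in that from ZNF557 to ZNF846, 10 of 14. In the run from ZNF565 to ZNF573 it was 5 of 26, and in the run from ZNF101 to ZNF254 8 of 37. The count was 8 of 25 from ZNF575 to ZNF296, 18 of 39 from ZNF175 to ZNF331 and 12 of 25 from ZNF653 to ZNF791.

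The median log2 difference from mock of the 182 tested members was 0 on array 108 and 0 on array 109, as it was for all 21794 probe sets tested. On each siRNA array many members had exactly the mock value, so this median says little about the rest. The mean difference of the members was -0.026 on array 108 and 0.023 on array 109, beside -0.014 and -0.0087 for all probe sets. The central 90% of the members lay between -0.42 and 0.26 on array 108 and between -0.26 and 0.37 on array 109, beside -0.33 to 0.26 and -0.34 to 0.29 for all probe sets. Exactly the same value on all 3 arrays was found for 74 members, or 40.7%, and for 39.2% of all probe sets. A further 21 members were tied on the siRNA arrays alone, so 95 members had no measured spread between those arrays. ZNF274, a KRAB protein that recruits SETDB1 to the 3′ ends of other zinc finger genes, was at 5.61 on every array.

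**Figure D1:**
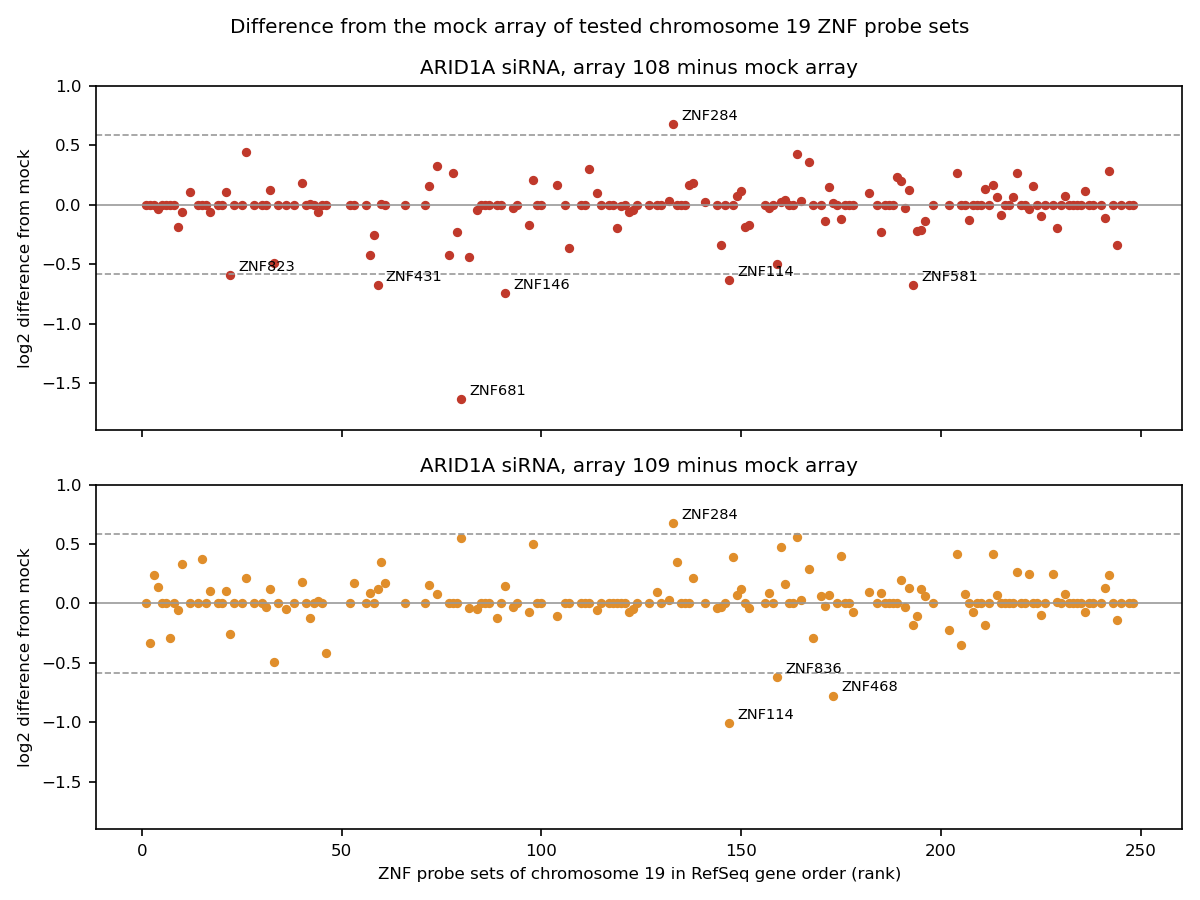
Log2 difference from the mock array (vertical axis) of the 182 tested members in their order on chromosome 19 (horizontal axis, rank), for array 108 (top) and array 109 (bottom). Dashed lines mark 1.5-fold and members beyond them are named; most points lie on or close to 0, and ZNF284 and ZNF114 are the members past the line on both arrays.

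On the values as deposited, background included, 1 of the 182 members lay at least 1.5-fold above the mock array on both siRNA arrays, where 0.344% of all probe sets did, and 1 lay as far below it on both, where 0.271% did. With 182 members these shares amount to 0.549% each, and they rest on a single member in each direction. Both differences use the same mock array. ZNF284, a KRAB zinc finger gene, was at 4.84 on array 108, 4.84 on array 109 and 4.16 in mock cells. The siRNA arrays were tied and both above their negative control means, and the mock value was below its own. Against the negative control mean of the mock array, ZNF284 was at least 1.33-fold higher in the siRNA cells. Its place in the count of 1.5-fold differences rests on the mock value below background, and no member above the negative control mean on all 3 arrays was 1.5-fold higher on both siRNA arrays. ZNF114, another KRAB zinc finger gene, was at 7.22 on array 108, 6.85 on array 109 and 7.86 in mock cells. All 3 values were well above the negative control means, and both siRNA arrays were below the mock array. ZNF114 was 1.55-fold lower on array 108 and 2.01-fold lower on array 109, a mean log2 difference of -0.82 ± 0.26 (SD, n = 2). With quantile normalization its difference on array 108 was -0.58, just short of 1.5-fold.

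No member passed the limma fit across all 21794 probe sets. At an adjusted p under 0.05, limma called 0 members higher and 0 lower, where it called 0% of all probe sets in each direction. At an unadjusted p under 0.05 it listed 2 members higher and 3 lower, where 1.08% of all probe sets were higher and 1.08% lower. These 5 were ZNF284 (unadjusted p = 0.00446), ZNF528, ZNF114 (unadjusted p = 0.0103), ZNF788 and ZNF836, and limma gave each an adjusted p = 1. Of them ZNF528 and ZNF836, which fall outside the rule for named genes, lay below the negative control mean on every array. With 1 residual degree of freedom and 1 mock array the fit has little power, and it assumes that the mock array varies like the siRNA arrays. With the spread prior taken over all probe sets, tied values included, limma called 15 members higher, where it called 5.02% of all probe sets, and 6 lower, where it called 4.66%. These are 8.24% and 3.30% of the members, and in that fit tied values have almost no spread.

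At a lower bar of 1.2-fold, 5 members on both siRNA arrays exceeded mock, where 2.26% of all probe sets did, and 3 were lower, where 2.45% were. These are 2.75% and 1.65% of the members tested, close to the shares of all probe sets. The higher count was 4 with quantile normalization and with median centring, where ZNF530 fell short of the bar. ZNF264, with 6.18 on array 108, 6.33 on array 109 and 5.91 in mock cells, was 0.34 ± 0.11 (SD, n = 2) above it. ZNF530 was at 4.75 on both siRNA arrays and at 4.48 on the mock array. The remaining higher members were ZNF284 and, below the negative control mean on every array, ZNF528 and ZNF808, a repressor of MER11 retroelements that is needed for pancreas development. ZNF497 followed by rank, at 5.41 on array 108, 5.37 on array 109 and 5.13 in mock cells. ZNF524 was at 5.73 on both siRNA arrays, with 5.53 in mock cells, and ZNF227 at 5.33 on array 108 and 5.36 on array 109, with 5.15 in mock cells. In these 3 genes both siRNA values exceeded the mock value, by less than the 1.2-fold bar on at least 1 array.

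The 3 lower members at this bar were ZNF114, ZNF788 and ZNF836, the last of them below the negative control mean on every array. ZNF788, annotated as a transcribed pseudogene in RefSeq under the symbol ZNF788P, was at 4.56 on both siRNA arrays, against 5.05 on the mock array. The siRNA value was above the negative control mean on array 108 and below it on array 109. The next by rank missed the 1.2-fold bar on array 109. ZNF823 was at 4.94 on array 108, 5.28 on array 109 and 5.53 in mock cells. ZNF581 was at 6.53 and 7.03 on arrays 108 and 109, against 7.21 on the mock array, and its close neighbour ZNF580 was at 6.44 and 6.55, against 6.66. ZNF584 was at 5.60 and 5.80 on these siRNA arrays, against 5.94 on the mock array. In each of these genes both siRNA values lay below the mock value. Array 108 was the lower of them in ZNF823, ZNF581, ZNF580 and ZNF584. Array 109 was the lower in ZNF114 and ZNF836, and ZNF788 was tied. None passed limma (adjusted p = 1 for each).

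**Figure D2:**
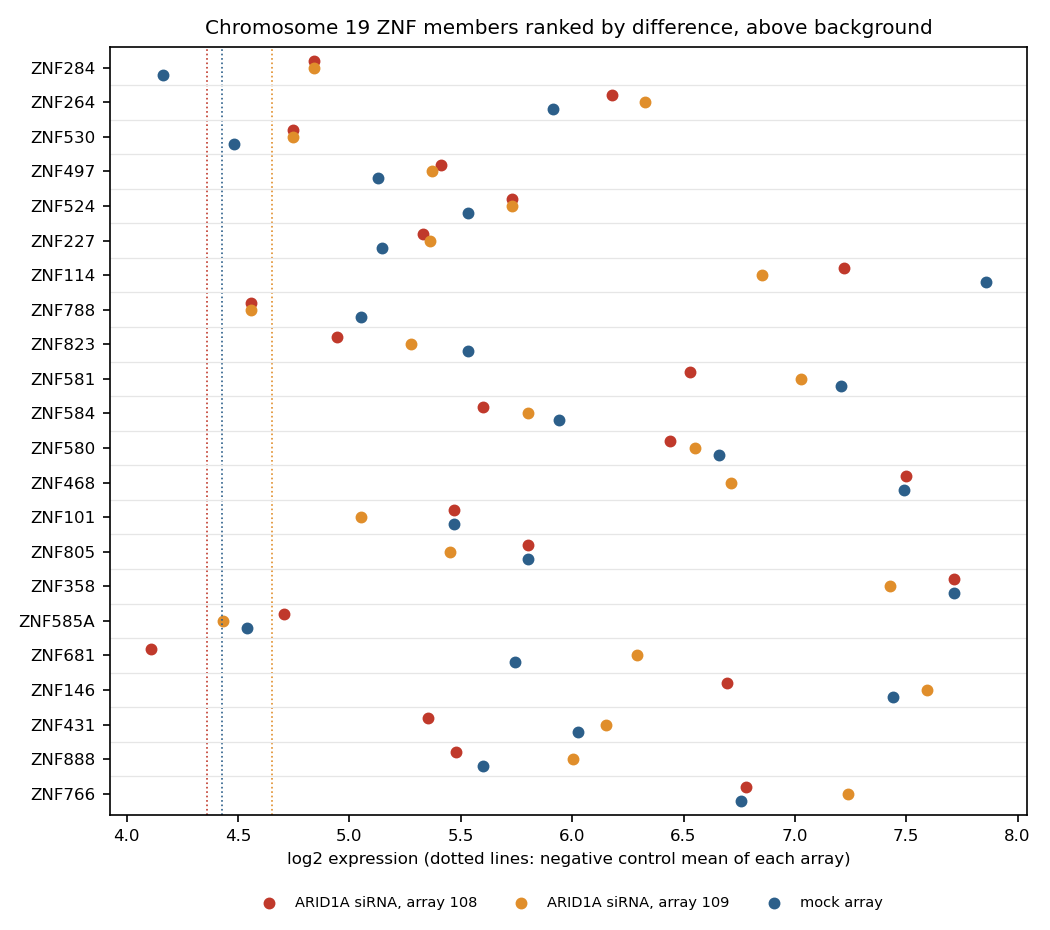
Log2 expression (horizontal axis) on array 108, array 109 and the mock array of 22 members, the first 6 each way among those above background by the smaller of their differences from mock and by array 109 against array 108, with dotted lines at the negative control mean of each array. ZNF284 and ZNF114 stand apart from the mock array on both siRNA arrays, while ZNF681, ZNF146 and ZNF431 are low on array 108 and ZNF468 is low on array 109.

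The siRNA arrays did not share most of the larger differences. On array 108, 1 member was at least 1.5-fold higher than on the mock array, where 0.757% of all probe sets were, and 6 were lower, where 1.49% were. On array 109 the counts were 1 higher and 3 lower, where 1.2% and 1.72% of all probe sets were. On array 108 the lower members were ZNF681, ZNF146, ZNF581, ZNF431, ZNF114 and ZNF823, and on array 109 they were ZNF114, ZNF468 and ZNF836. ZNF114 is in both sets. At 2-fold the counts on both siRNA arrays were 0 higher, where 0.0367% of all probe sets were, and 0 lower, where 0.0413% were. ZNF681 alone was at least 2-fold lower on array 108, where 0.266% were, and ZNF114 alone on array 109, where 0.408% were. None was 2-fold higher on array 109, where 0.243% were, or on array 108, where 0.11% were. Between the siRNA arrays ZNF681 alone was at least 2-fold higher on array 109 than on array 108, where 0.491% were.

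Between the siRNA arrays themselves, a comparison of 1 array with 1 that leaves out the mock array and has no test, 3 members were at least 1.5-fold higher on array 109, where 2.26% of all probe sets were. ZNF468 alone among the members was that much lower, where 1.52% of all were. ZNF681, a KRAB zinc finger gene, was at 6.29 on array 109 and 4.11 on array 108, with 5.74 on the mock array. Array 108 lay below its negative control mean, so ZNF681 was at least 3.81-fold higher on array 109 than on array 108, and at least 2.61-fold lower on array 108 than on the mock array. On array 109 ZNF681 was 1.46-fold above the mock array, so the siRNA arrays lay on opposite sides of it. ZNF146, also called OZF, whose protein consists of zinc fingers with no KRAB domain and which is overexpressed in some colorectal and pancreatic tumours, was at 7.59 on array 109 and 6.70 on array 108. Its mock value was 7.44, close to array 109, and it was 1.86-fold higher on array 109 than on array 108.

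ZNF431, whose mouse counterpart represses the Hedgehog receptor gene Patched1, was at 6.15 on array 109 and 5.35 on array 108, with 6.03 on the mock array. As for ZNF146, it was array 108 that stood apart from the mock array, and the difference between the siRNA arrays was 1.74-fold. ZNF468 went the other way, with 6.71 on array 109, 7.50 on array 108 and 7.49 on the mock array, so here array 109 stood apart, 1.73-fold below array 108. In ZNF888 array 109 stood above both other arrays, at 6.0 with 5.48 on array 108 and 5.60 in mock cells, and so it did in ZNF766, at 7.24, 6.78 and 6.76 on these arrays. ZNF101, ZNF805 and ZNF358 had the same value on array 108 and the mock array and were 0.42, 0.35 and 0.29 lower on the log2 scale on array 109. ZNF585A was at 4.43 on array 109, below the negative control mean there, with 4.70 on array 108 and 4.54 in mock cells.

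At 1.2-fold, 21 members were higher on array 109 than on array 108, where 8.17% of all probe sets were, and 11 were lower, where 6.8% were. The member shares were 11.5% and 6.04%. The ZNF probe sets of other chromosomes had 13.4% higher and 4.18% lower, and the other probe sets of chromosome 19 had 5.51% higher and 7.75% lower. No test was made of the differences between these shares.

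**Figure D3:**
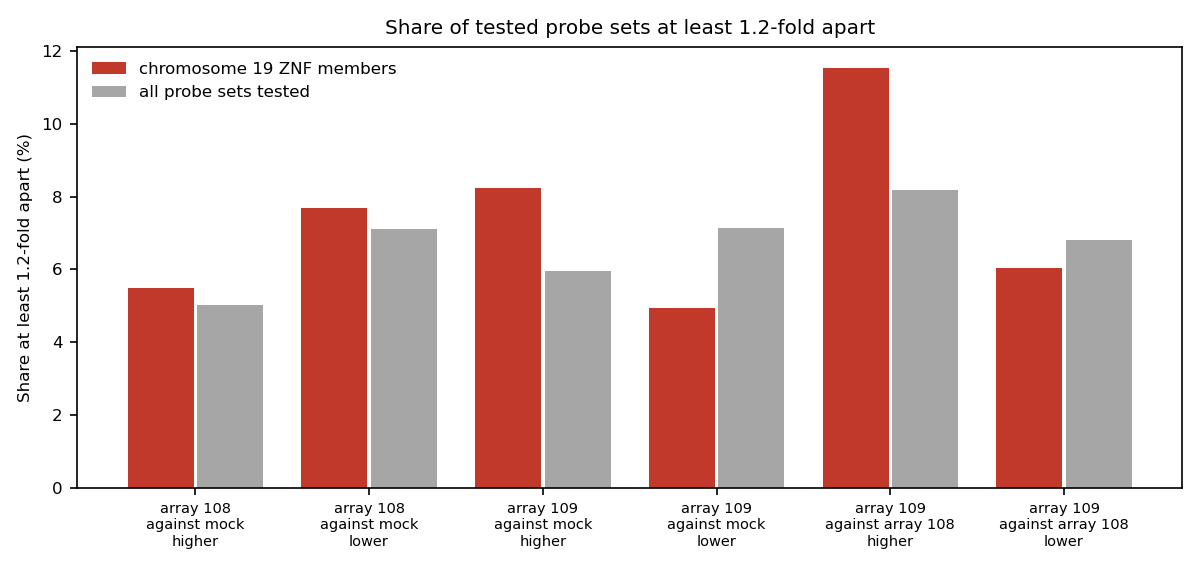
Share of tested probe sets (vertical axis, percent) at least 1.2-fold higher or lower in each comparison, for the 182 members (red) and all 21794 probe sets tested (grey). The widest gap is in probe sets higher on array 109 than on array 108, at 11.5% of the members and 8.17% of all.

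Against the mock array, 10 members were at least 1.2-fold higher on array 108, where 5.01% of all were, and 14 were lower, where 7.12% were. On array 109 there were 15 higher, where 5.95% of all were, and 9 lower, where 7.15% were. As shares of the members these were 5.49%, 7.69%, 8.24% and 4.95%.

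The run of neighbours from ZNF101 to ZNF254 held ZNF681 and ZNF431. Of its 37 members 18 were tested, and 6 of them were at least 1.2-fold higher on array 109 than on array 108, against 2 that were lower. Of all probe sets tested, 8.17% were higher and 6.8% lower, and the same shares stand beside the counts of the other runs. The higher members were ZNF681, ZNF431, ZNF254, ZNF430, ZNF708 and ZNF91, and of these ZNF430, ZNF708 and ZNF91 lay below the negative control mean on every array. ZNF254 was at 5.91 on array 109 and 5.51 on array 108, with 5.95 on the mock array, so array 108 again stood apart. The mean difference of array 109 from array 108 over the 18 was 0.25 on the log2 scale, and 0.14 without ZNF681. It was 0.08 when the untested members of the run were included. The runs from ZNF628 to ZNF446 and ZNF175 to ZNF331 had mean differences of 0.03 and 0.02. At 1.2-fold, 3 of 53 and 3 of 30 tested members were higher there and 2 lower in each. From ZNF557 to ZNF846 and ZNF565 to ZNF573 the means were 0.061 and 0.057. There 2 of 11 and 3 of 16 were higher, and 1 and 2 lower. From ZNF575 to ZNF296 and ZNF653 to ZNF791 the means were 0.03 and -0.0006. There 2 of 17 and 1 of 19 were higher, and 0 lower in each. The run from ZNF101 to ZNF254 was singled out after its values had been seen.

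**Figure D4:**
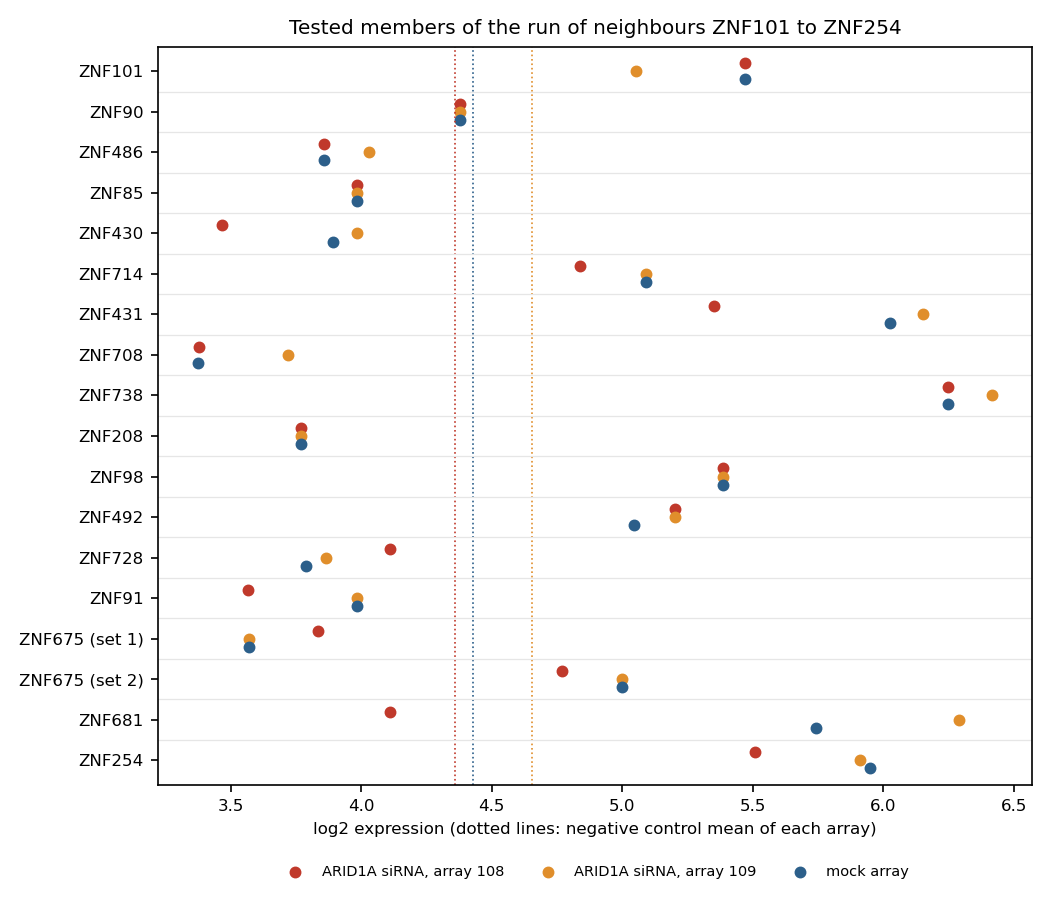
Log2 expression (horizontal axis) on array 108, array 109 and the mock array for the 18 tested members of the run from ZNF101 to ZNF254, in chromosome order, with dotted lines at the negative control means. The 3 points of ZNF98, ZNF208, ZNF85 and ZNF90 stand at 1 level per member, while ZNF681, ZNF431 and ZNF254 are lower on array 108 than on the other arrays.

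Members with a described role were mostly at background. Of 21 probe sets for 20 such genes, 14 lay under the negative control mean on every array and 5 above it on all. Of all 248 members, 123 lay under it on every array and 110 above it on all. The difference was not tested. Among repressors of retroelements, ZNF93, which silences LINE-1, lay below that mean throughout, at 3.16 on array 108, 2.46 on array 109 and 2.27 on the mock array. ZNF91, which silences SVA elements, was also below it on both of its probe sets. ZNF611 was at 4.89, 4.95 and 4.89 on array 108, array 109 and the mock array, and ZNF649 at 4.60, 4.78 and 4.78. These detected repressors differed from the mock array by at most 0.19 on the log2 scale.

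Of 7 members known for promoter methylation in tumours, 5 were below the negative control mean on every array, where 123 of all 248 members were. These 5 were ZNF132, ZNF154, ZNF471, ZNF582 and ZNF677. ZNF671 was at 4.44 on each array, below that mean on array 109. ZNF135 was at 4.40, 4.22 and 4.29 on array 108, array 109 and the mock array, above that mean on array 108 alone. The imprinted gene ZNF331 was at 3.53 on every array, and ZNF224, a repressor of the aldolase A gene, at 3.53, 3.88 and 3.53. ZNF420, an inhibitor of p53, the tumour-silenced ZNF382, and ZNF568, whose mouse counterpart represses a placental transcript of Igf2, were not tested because of their low values. Among the members named for their high signal, ZNF121 was at 8.40, 8.78 and 8.40 on array 108, array 109 and the mock array, and ZNF317 was at 7.64, 8.03 and 7.70. ZNF574 was at 7.44, 7.64 and 7.64 on these arrays.

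The probe sets of 1 gene did not always move alike. Those of ZNF675 were at 4.77 and 3.84 on array 108, at 5.0 and 3.57 on array 109 and at 5.0 and 3.57 in mock cells, so that array 108 was lower than the mock array by the brighter set and higher by the dimmer. The dimmer set was below the negative control mean throughout. In ZNF544 and ZNF846 each set had its own value on all arrays unchanged. In ZNF417 the brighter set was at 5.16 on every array, and the dimmer set, below the negative control mean throughout, at 4.21, 4.21 and 4.13 on array 108, array 109 and the mock array. The probe sets of the 7 genes with several were kept apart.

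Partners of KRAB zinc finger proteins were also measured. Of 29 probe sets for TRIM28, heterochromatin proteins, histone and DNA methyltransferases, the HUSH complex, MORC proteins, deacetylases, a demethylase, chromatin remodellers, ATRX, DAXX and SCAND1, 28 were above the negative control mean on all arrays. Both siRNA arrays lay above the mock array in 2 of them, where 12.9% of all probe sets did, and below it in 8, where 15.7% did. With quantile normalization these counts were 11 and 8, and with the arrays centred on their medians 2 and 15, so no direction can be read for the list. TRIM28 was at 9.24 on array 108, 9.25 on array 109 and 9.50 in mock cells. SUV39H1, a histone H3 methyltransferase, was at 7.41 on both siRNA arrays, against 7.67 on the mock array. SETDB1 was at 6.59 on all 3 arrays. CBX5, the gene of HP1 alpha, was at 7.80 on array 108, 8.54 on array 109 and 8.05 in mock cells, so the siRNA arrays lay on opposite sides of it. Of the 29, 0 passed limma at an adjusted p under 0.05, and CBX5 and SETDB1, which the naming rule does not cover, were picked with their values in view.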

How the data were processed

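Total RNA of SAS cells was measured on 3 Affymetrix Human Gene 2.0 ST arrays, which limits the precision of every value. The arrays were processed by the authors in Expression Console (Affymetrix), per the submitters' processing notes. Its version, its settings and a genome build are not given in sources used here. The deposited value table holds log2 expression, normalized by the authors. A deposited table per siRNA array gives, per the file headers, linear intensity for that array and mock, their ratio, its log2 and negative control means. Both sources differed by at most 5.04e-05 on the log2 scale.

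Probe sets with 1 symbol were kept separate, and the lowest by mean log2 value, below percentile 30 (3.47), were dropped. The comparison of siRNA with mock arrays used limma (version 3.58.1, R version 4.3.3), two-sided, with Benjamini-Hochberg adjustment over 21794 probe sets. Tied siRNA values collapse the usual prior, so the prior (6.28 degrees of freedom) came from the 11030 untied probe sets and was applied to all. On simulated data the fit returned the sizes of the changes put in, but made more false calls than its nominal rate. Counts past a fold used the values as deposited. Only for a fold printed as at least N-fold did the negative control mean take the place of a dim side below it. Member genes were matched by Entrez identifier to RefSeq (248 of 248), whose gene order and promoters are those of GRCh38.p14. Zinc finger counts and KRAB motifs were planned, but protein sequences were not used here.

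Named members, with the brighter side above the negative control mean of its array, are the 6 with the largest rise and fall on both siRNA arrays by the smaller difference, the 6 highest and lowest on array 109 against array 108, and the 5 with the highest mean level; members with a described role, genes with several probe sets and up to 6 partners could be named whatever their level. The alternatives were the filter, the scaling, averaging per gene, the fold, the prior, the source of values and each siRNA array alone. Members and lists were chosen with earlier results of these data known.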

Additional observations from a re-analysis of the deposited data

How the results depend on the processing

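The absence of limma calls among the members held with no filter, a filter at the negative control means, quantile or median scaling, averaging per gene, linear values, and untied probe sets only. It did not hold with the prior over all probe sets, where ties give a spread of 0: that fit called 15 members as higher and 6 as lower, beside 5.02% and 4.66% of all probe sets. Taking unadjusted p under 0.05, limma listed 2 higher and 3 lower. Counts at 1.5-fold on both siRNA arrays, 1 higher and 1 lower, became 5 and 3 at 1.2-fold (4 and 3 there with either scaling) and 0 and 0 at 2-fold. The higher count was 0 when only members above the negative control mean on all 3 arrays were taken, which leaves out ZNF284, an alternative chosen after seeing the data. The lower count was 0 with quantile normalization, where ZNF114 differed by -0.58 on array 108. With 1 siRNA array left out the higher count was 1 and the lower count ranged from 3 to 6. Between the siRNA arrays, 3 higher and 1 lower became 21 and 11 at 1.2-fold and 1 and 0 at 2-fold, and 2 lower with no filter. The median difference from mock, 0 on each siRNA array, was -0.00019 on array 108 and 0.00294 on array 109 with quantile normalization, and -0.00161 on each with median centring. Over 22 named members, the scalings moved a difference by at most 0.0687, and all 12 ranked by both siRNA arrays kept their direction. Averaged over the run from ZNF101 to ZNF254, array 109 minus array 108 was 0.25, and 0.14 without ZNF681. No paired analysis was possible because the labels give the groups no shared replicate number and there is 1 mock array. A limma test without either siRNA array was not run, since 1 array against 1 leaves no residual degree of freedom. The 3 arrays and the many members below the negative control mean limit what could be detected.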

Other observations

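Probe sets of different genes often carried exactly the same value. The neighbours ZNF85, ZNF91 and ZNF430 each stood at log2 3.99 on array 109, identical to the last printed decimal of the deposited table, and 97 probe sets with 1 symbol had this value there. Of the 182 tested members, 102 on array 108, 106 on array 109 and 105 on the mock array shared their value with another probe set, as did 53.3%, 53.4% and 53.1% of all probe sets tested.

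Among the 66 members left out for low values, ZNF257 was at 2.27 on array 108, 2.02 on array 109 and 2.81 in mock cells. ZNF563 was at 2.74 and 2.61 on arrays 108 and 109, against 2.32 on the mock array. These were the members left out that were at least 1.2-fold apart on both siRNA arrays, and both were below the negative control mean throughout.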
